A study of Mus musculus with 14 samples.

Results

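Hippocampal mRNA of mice exposed to intermittent hypoxia (IH) was compared with that of normoxic control mice, gene by gene. The comparison holds 9 libraries, 5 from IH mice and 4 from control mice, of the 14 libraries of the series, and the 5 libraries of the sustained hypoxia (SH) group are set beside it where a difference between the 2 kinds of hypoxia was tested. Genes were members when their mean read count was at least 40 in both the control and the IH group, which kept 7371 of the 7756 deposited genes and left out 385. The deposited genes had been preselected, in part by their difference from control, so shares of genes called hold within this table only. All mice were wild-type C57BL/6J. They entered the experiment at an age of 8 weeks and stayed in it for 28 days. The IH group breathed oxygen that fell to 10% and returned to 21% every 2 min (70 s low, 50 s normal) during 8 h of each day. Mice of the SH group were held at 10% oxygen over the same 8 h, and control mice at 21%. IH and SH mice went through a maze and an avoidance test before the hippocampi were taken. Control RNA had been sequenced from a preliminary experiment with mice of the same strain, age and housing time, so that exposure and experiment cannot be told apart in any difference between IH and control. Whether those control mice took the behavioral tests is not given in the sources used here. The comparison asks which hippocampal genes differ after cyclic deoxygenation and reoxygenation, used as a model of obstructive sleep apnea.

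The endoplasmic reticulum (ER) folds secreted and membrane proteins with resident chaperones and oxidoreductases, and cells raise the amounts of these enzymes together when unfolded proteins build up there. Transcription factors of the ATF6 and XBP1 type read a short promoter motif, the ER stress response element (ERSE), in many of these genes. Neurons switch on another group, the activity-induced or immediate early genes such as Fos, Junb and Egr4, within minutes of synaptic activity, and the transcripts decay quickly. Low oxygen is read by hypoxia-inducible factors (HIF), which raise genes of glycolysis and blood vessel growth, while NRF2, encoded by Nfe2l2, answers oxidants.

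Total counts over the deposited genes were between 8352355 and 11777100 in the control libraries and between 7568082 and 10578074 in the IH libraries. Markers of pyramidal cells, dentate granule cells and interneurons were present in every library. Choroid plexus markers, summed as CPM (counts scaled to a common library total), were uneven, at 13800.3 in control replicate 4, 7844 in IH replicate 1 and 8466 in IH replicate 4 against 450.5 to 1285 in the other 6 libraries. IH replicate 5 had the highest sums of oligodendrocyte markers (22119 CPM against 8340 to 12370 in the other 8) and of thalamus and habenula markers (611, with the other 8 at most at 391.7). The libraries also differed in how their counts leaned on base composition. The slope of log2 expression per 10 percentage points of transcript GC content was 0.022 to 0.219 in the control libraries and -0.054 to 0.007 in the IH libraries, without overlap. Its part in the differences between the groups was not tested, and values from counts corrected, library by library, for trends with GC content and length are given beside results where a call was lost.

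At a Benjamini-Hochberg adjusted p below 0.05 in edgeR's quasi-likelihood test, 786 of the 7371 genes differed between IH and control, which is 10.7% of all genes tested. Of these, 345 genes (4.68%) were lower and 441 genes (5.98%) were higher in IH. The excess of higher genes turned under the 80th percentile scaling of the study (422 lower, 399 higher) and under its processing with limma (314 lower, 293 higher), as well as with the replicate block and the removal of GC content and length trends (199 lower, 181 higher). In bulk tissue, fewer cells of a type and less RNA per cell cannot be told apart in any of these differences. Most changes were small, with a median log2 fold change of -0.36 among the lower genes and 0.35 among the higher ones, and 59 lower and 60 higher genes passed 1.5-fold. At an unadjusted p below 0.05 with a log2 fold change past 0.58 in size, limits taken from the study's methods, there were 83 genes lower (1.13%) and 116 higher (1.57%). Here too the excess of higher genes turned, with 105 lower and 99 higher under the study's processing with limma and 100 lower and 87 higher without IH replicate 5. The study itself reported mostly lower genes at these limits, from a test that its methods do not name. In 551 genes (7.48%) every IH library lay below every control library, and in 561 genes (7.61%) every IH library lay above. The number of calls rested on single libraries. It was 407 without control replicate 2, 439 without control replicate 1, and 361 when control replicate 4, with the highest choroid plexus sum, and IH replicate 5, with the highest oligodendrocyte and thalamus sums, were both left out.

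**Figure D1:**
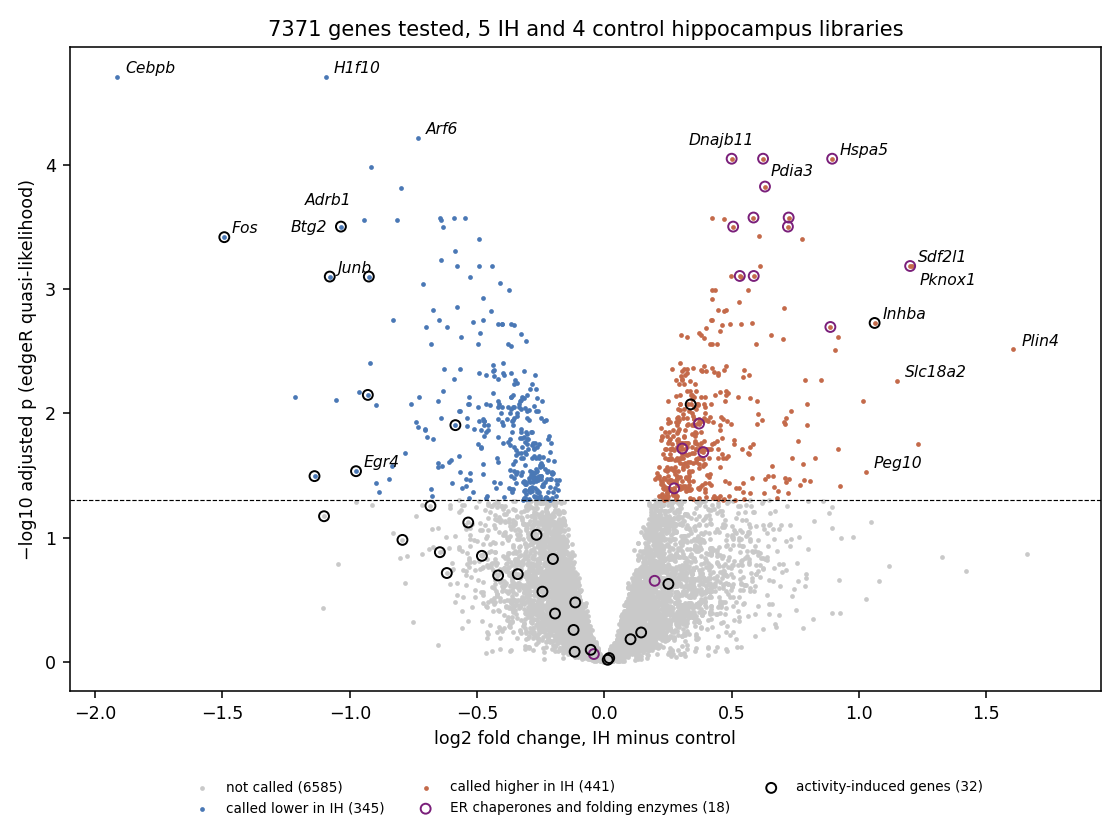
Log2 fold change of IH minus control (x axis) against −log10 of the adjusted p (y axis) for the 7371 genes tested, with the 345 genes called lower in blue, the 441 called higher in orange and the dashed line at an adjusted p of 0.05. Open circles mark the 18 ER chaperones and folding enzymes, of which 16 lie above the line on the right, and the 32 activity-induced genes, of which 8 lie above the line on the left and 2 on the right.

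Called genes differed in base composition and length. Lower genes had a median transcript GC content of 57.1% and a median length of 2514 bases, higher genes 44.3% and 4812 bases, and genes that were not called 51.1% and 3383 bases. Genes were split by GC content into 5 bins of equal size. In the lowest bin 0.48% were called lower and 14.4% higher, and in the highest bin the shares were 12.1% and 0.41%. Across 7336 genes, which are not independent replicates, Spearman's correlation of the log2 fold change was -0.454 with GC content and 0.261 with length. Once the 2 trends were removed from each library, 442 genes were called, 221 in each direction, and 305 of them were among the 786.

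**Figure D2:**
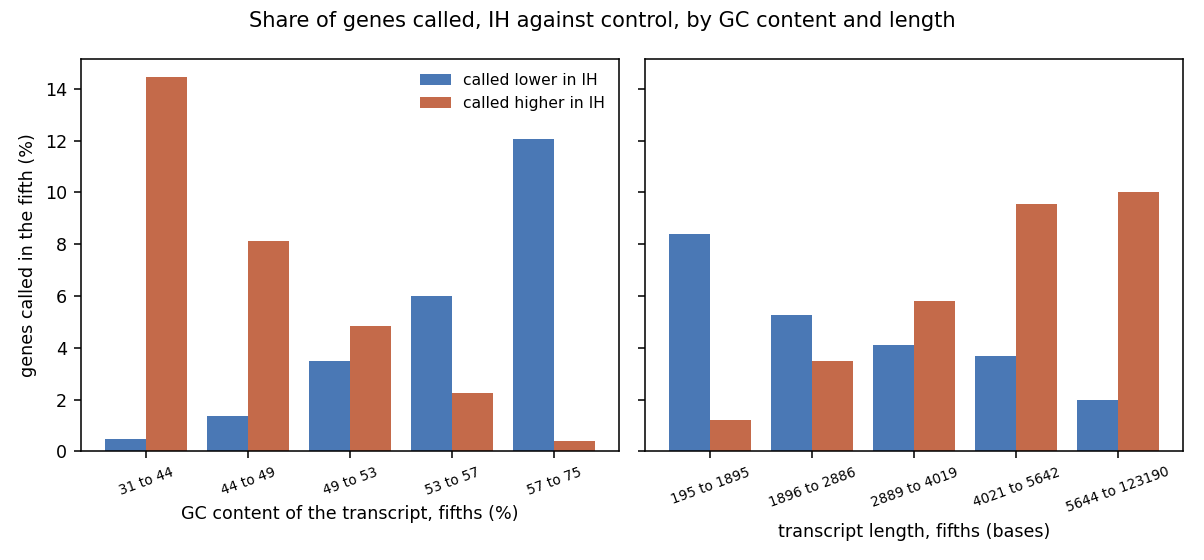
Percent of genes called lower (blue) and higher (orange) in IH against control (y axis) in 5 equal bins of genes ordered by transcript GC content (left, in percent) and by transcript length (right, in bases). The share called higher falls from 14.4% to 0.41% from the lowest to the highest GC bin, and the share called lower rises from 0.48% to 12.1%.

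Most ER chaperones and folding enzymes tested rose together. The list names 31 genes. The deposited table, preselected in part by difference from control, held 19 of them, and 18 passed the count limit. Of these 18 members, 16 were higher in IH and none was lower, against a background of 5.98% of all genes called higher. In 16 members every IH library lay above every control library, as in 7.61% of all genes. The median log2 fold change of the list was 0.56, while the median of all genes tested was -0.02. The median of the members relative to the control mean was -0.10 to 0.06 in the control libraries, 0.44 to 0.66 in the IH libraries and 0.17 to 0.30 in the SH libraries. The number of members called stayed between 13 and 16 over all alternatives, including the removal of GC content and length trends (13 higher, median 0.53) and the fit without control replicate 4 and IH replicate 5 (13 higher, median 0.60).

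The ERSE, in which CCAAT and CCACG stand 9 bases apart, was searched on both strands of RefSeq promoters running from 250 bases before to 50 bases after the gene start. Promoters were in the table for 16 of the 18 members, and 7 of these 16 (43.8%) held the motif, namely Hspa5, Hsp90b1, Calr, Pdia6, Creld2, Dnajc3 and Ero1b. The motif was present in 39 of 32851 promoters (0.119%) and in 12 of the 5749 tested genes that had a promoter in the table (0.209%). All 7 chaperone genes with the motif were called higher in IH, and the other 5 genes with it, Hnrnpa3, Zfp57, Xlr3b, Adcy3 and Spats2l, were not called, with log2 fold changes between -0.15 and 0.74. The motif describes these sequences and is not a measured binding site. The 250 bases before the start are printed for 4 of the genes, since they show the element that several of the called chaperones share, 5′ to 3′ on the gene's own strand, with the CCAAT and CCACG parts, or their reverse complements, in capitals. The sequences are from RefSeq and the coordinates are their exact matches in GRCm39, at chr2:34661852-34662101 (plus strand), chr10:86541309-86541558 (minus), chr8:85573561-85573810 (minus) and chr15:88703599-88703848 (plus). The motif begins 65 bases before the start in Hspa5, 162 in Calr and 126 in Creld2, and Hsp90b1 holds it at both 212 and 107 bases.
Hspa5: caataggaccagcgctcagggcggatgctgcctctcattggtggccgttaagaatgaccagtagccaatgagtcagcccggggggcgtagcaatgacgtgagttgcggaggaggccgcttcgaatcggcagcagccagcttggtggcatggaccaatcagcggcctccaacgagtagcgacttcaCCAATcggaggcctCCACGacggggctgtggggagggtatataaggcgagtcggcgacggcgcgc
Hsp90b1: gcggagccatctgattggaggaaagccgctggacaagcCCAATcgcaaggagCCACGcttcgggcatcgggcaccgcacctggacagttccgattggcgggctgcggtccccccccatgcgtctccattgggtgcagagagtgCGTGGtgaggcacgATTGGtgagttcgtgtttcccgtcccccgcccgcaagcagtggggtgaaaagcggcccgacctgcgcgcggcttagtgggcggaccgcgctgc
Calr: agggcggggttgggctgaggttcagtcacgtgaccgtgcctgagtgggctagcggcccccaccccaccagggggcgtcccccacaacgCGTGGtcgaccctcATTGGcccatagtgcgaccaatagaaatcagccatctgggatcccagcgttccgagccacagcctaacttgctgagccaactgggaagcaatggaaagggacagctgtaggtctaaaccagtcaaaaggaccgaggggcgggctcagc
Creld2: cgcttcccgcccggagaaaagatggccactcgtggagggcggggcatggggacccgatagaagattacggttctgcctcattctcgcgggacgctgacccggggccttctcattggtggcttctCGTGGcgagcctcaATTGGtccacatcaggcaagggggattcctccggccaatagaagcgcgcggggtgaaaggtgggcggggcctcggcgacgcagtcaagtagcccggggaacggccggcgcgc

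Hspa5 encodes BiP, the main Hsp70 chaperone of the ER lumen. Its normalized counts were 3802, 4600.1, 4934 and 4745 in the control libraries (replicates 1 to 4) and 9757, 7598, 9143, 7838 and 7665 in the IH libraries (replicates 1 to 5). The lowest IH value was well above the highest control value, and the log2 fold change was 0.89 ± 0.10 (SE, adjusted p = 8.94e-05). In the SH libraries the counts were 6705, 5635, 6063, 5007 and 6126, between the other groups, and IH exceeded SH by 0.51 ± 0.09 (SE, adjusted p = 0.00809). Pdia3 is a disulfide isomerase that works on glycoproteins held by calreticulin and calnexin. Counts of Pdia3 were 3015, 3369.9, 3317 and 3415 in control and 5205, 4682, 5834, 4484 and 5039 in IH, again without overlap, at a log2 fold change of 0.62 ± 0.07 (SE, adjusted p = 8.94e-05). Against SH the difference was 0.46 ± 0.07 (SE, adjusted p = 0.00114), the smallest adjusted p of the list in that comparison. Dnajb11, a cochaperone of BiP, had counts of 986, 961, 958 and 920.3 in control and 1356, 1301, 1399, 1352 and 1350.2 in IH, a narrow spread in both groups, with a log2 fold change of 0.50 ± 0.06 (SE, adjusted p = 8.94e-05) and a difference from SH of 0.29 (adjusted p = 0.00797). Sdf2l1, a soluble partner of Dnajb11, showed the largest change of the list, 143, 126, 154 and 146 against 337, 259, 429, 236 and 375, at a log2 fold change of 1.20 ± 0.18 (SE, adjusted p = 0.000653). It differed from SH by 0.57 (adjusted p = 0.0803), which did not pass. The calls of Hspa5, Pdia3, Sdf2l1 and Manf, a small ER-retained protein that is also secreted (log2 fold change 0.72 ± 0.10 SE, adjusted p = 0.000315), passed in all 27 alternatives run.

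Among the other members, the ER form of Hsp90, Hsp90b1, rose by 0.63 (adjusted p = 0.00015), the calcium-binding lectin chaperone Calr by 0.59 (adjusted p = 0.000266), the isomerases Pdia4 by 0.72 (adjusted p = 0.000266) and Pdia6 by 0.59 (adjusted p = 0.000785), and Creld2 by 0.89 (adjusted p = 0.00202). Smaller changes passed for the Hsp70-like Hyou1 (0.51, adjusted p = 0.000315), the BiP cochaperones Dnajc3 (0.53, adjusted p = 0.000785) and Dnajb9 (0.27, adjusted p = 0.0402), the oxidase Ero1b (0.39, adjusted p = 0.0205), the glycosylation enzyme Stt3a (0.31, adjusted p = 0.0192) and the transcription factor Xbp1 (0.37, adjusted p = 0.0121). Without the GC content and length trends, Dnajb9 was at 0.12 (adjusted p = 0.363), Ero1b at 0.27 (adjusted p = 0.128) and Stt3a at 0.11 (adjusted p = 0.416), and the other 13 stayed called. The members that did not pass were Selenos (0.20, adjusted p = 0.223) and the translocon subunit Sec61b (-0.04, adjusted p = 0.867), whose IH and control values overlapped, and Derl3 was under the count limit. In the test of IH against SH, 8 of the 18 members were higher in IH, where 1.51% of all genes were, and none was lower. Those 8 were Pdia3, Dnajb11, Hspa5, Hsp90b1, Pdia4, Pdia6, Xbp1 and Hyou1, with differences between 0.25 and 0.51. Dnajb9 is the member with the opposite sign, at -0.09 (adjusted p = 0.649) against SH.

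**Figure D3:**
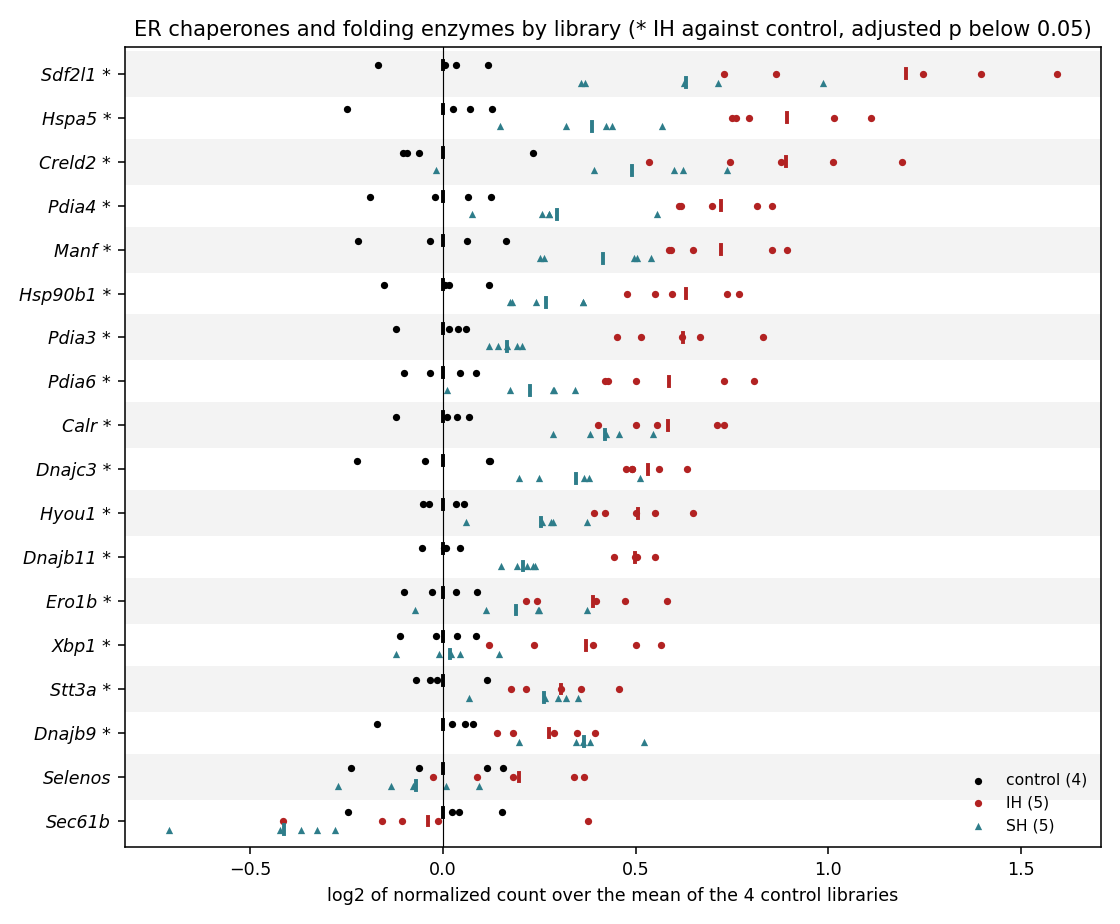
Log2 of the normalized count over the mean of the 4 control libraries (x axis) for 18 ER chaperones and folding enzymes (rows), with control libraries as black points, IH as red points, SH as teal triangles and group means as short bars. In 16 rows all red points lie to the right of all black points, and the median of the members runs from 0.44 to 0.66 in the IH libraries and from 0.17 to 0.30 in the SH libraries.

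The integrated stress response, the arm that acts through ATF4 and is often active beside the ER chaperones, was tested with 11 target genes. The list names 30, and the others were not in the preselected deposited table. Of the 11, 1 was lower and none was higher, against 4.68% and 5.98% of all genes, and the median log2 fold change was -0.08. Atf4 itself was at -0.08 (adjusted p = 0.415) and Ppp1r15a, which restores translation, at -0.27 (adjusted p = 0.14). Cebpb, a bZIP transcription factor of inflammatory and metabolic genes, was the lower one and the gene with the largest fall of all 345. Cebpb counts were 288, 464, 397 and 509 in control and 100.3, 97.8, 113, 114 and 123 in IH. The 5 IH libraries lay close together and below the lowest control library, with a log2 fold change of -1.91 ± 0.17 (SE, adjusted p = 1.95e-05). SH libraries held 267, 206, 244, 361 and 307, and IH was lower than SH by a log2 difference of -1.33 ± 0.17 (SE, adjusted p = 0.000389). These values held in all 27 alternatives for IH against control, including -1.61 (adjusted p = 0.000222) without the trends.

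Cytosolic heat shock genes rose in part. Of 12 tested, from 24 listed, 5 were higher and none was lower, against 5.98% and 4.68% of all genes, with a list median of 0.36. The 5 were Hsph1, an Hsp110 nucleotide exchange factor (0.39, adjusted p = 0.01), the Hsp90 cochaperones Chordc1 (0.53, adjusted p = 0.00126) and Stip1 (0.37, adjusted p = 0.0086), and the small heat shock proteins Cryab (0.71, adjusted p = 0.0121) and Hspb1 (0.92, adjusted p = 0.0194). Chordc1 counts were 1613, 1796, 1817 and 1722 in control and 2849, 2355, 2825, 2179.9 and 2329 in IH. Stip1 was at 2993, 2991, 2846 and 3082 and 4385, 3528, 4420, 3266 and 3590. Neither gene overlapped between the groups. In Hspb1 the groups did overlap, at 114, 127, 112 and 229.5 and 297, 239, 360.3, 185 and 289, with control replicate 4 above IH replicate 4. The inducible Hsp70 genes Hspa1a (0.23, adjusted p = 0.563) and Hspa1b (0.38, adjusted p = 0.312), which are near-identical copies and uncertain, did not pass. Against SH, Hspb1 was higher by 1.08 (adjusted p = 0.0161) and Hspb8 by 0.56 (adjusted p = 0.0201), and the SH libraries as a list had a median near 0 against control. The count of members called ran from 4 to 7 over the alternatives, with 7 without control replicate 4. Without the trends Hsph1 was at 0.33 (adjusted p = 0.0603) and Chordc1 at 0.26 (adjusted p = 0.041), and Chordc1 lost the call with the replicate block as well, at 0.26 (adjusted p = 0.0653).

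Activity-induced genes fell in part. Of 32 tested, from 42 listed, 8 fell and 2 rose, against backgrounds of 4.68% and 5.98%. Of the 32, 25 were below 0, and the median log2 fold change was -0.38. In the same fit the median of SH minus control was -0.45, a comparison that shares the control libraries, and no member passed the test of IH against SH (median 0.04). The median of the members relative to the control mean was -0.29 to 0.19 in control libraries, where replicate 1 was lowest, and -0.43 to -0.25 in IH libraries, so the lowest control library overlapped the IH range. Between 5 and 11 members were called lower over the alternatives, with 5 after the GC content and length trends were removed, 6 without control replicate 2 and 8 without control replicate 4 and IH replicate 5. Behavioral testing before collection is stated for the IH and SH mice, and its part in the result was not tested.

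Fos, a subunit of the AP-1 transcription factor, had normalized counts of 358, 555, 466 and 535 in control and 152, 147, 123, 148 and 276 in IH. IH replicate 5 was the highest of its group, yet all 5 were below the lowest control library, at a log2 fold change of -1.49 ± 0.20 (SE, adjusted p = 0.000383). The SH libraries had 243, 189.6, 198, 252 and 257, and the difference of IH from SH was -0.43 (adjusted p = 0.296). Junb, its partner, was at 1456, 2338, 1873 and 2111 in control and 812, 816, 1027, 853 and 1092 in IH, with no overlap and a log2 fold change of -1.08 ± 0.15 (SE, adjusted p = 0.000794). Btg2, an antiproliferative cofactor of mRNA decay, fell from 427, 763, 588 and 637 to 256, 315, 273, 268 and 359, likewise without overlap, at a log2 fold change of -1.03 ± 0.14 (SE, adjusted p = 0.000315). Dusp1, a phosphatase that switches off MAP kinases, was at 403, 574, 569 and 562 against 323, 232, 239, 242 and 348 (-0.93 ± 0.14 SE, adjusted p = 0.000794), and its control replicate 1 was the low value of its group. All 4 genes were called in all 27 alternatives.

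Egr4, a zinc finger factor, was at 780.5, 1133, 825 and 1066 in control and 399, 457, 381, 443 and 731 in IH, with a log2 fold change of -0.98 ± 0.26 (SE, adjusted p = 0.0292). The highest IH value, in replicate 5, came close to the lowest control value, and the call was lost in 7 of 27 alternatives, among them the fits without the trends, at -0.89 (adjusted p = 0.0545), without control replicate 2 (adjusted p = 0.083) and without control replicate 4 (adjusted p = 0.0692). The remaining members called lower were Npas4 (-1.14, adjusted p = 0.0321), Ier2 (-0.93, adjusted p = 0.00712) and Gadd45b (-0.59, adjusted p = 0.0125). Without the trends Npas4 was at -1.03 (adjusted p = 0.067) and Gadd45b at -0.44 (adjusted p = 0.0845). Arc, a synaptic capsid-like protein, was at -1.10 (adjusted p = 0.0674), Nr4a1 at -0.68 (adjusted p = 0.0556) and Egr1 at -0.65 (adjusted p = 0.131), none of which passed, and their group values overlapped. The 2 members that rose were Inhba and Homer1. Inhba, the activin A subunit, was at 112, 161, 191 and 202 in control and 349, 369, 348, 266 and 404 in IH, above control in all 5 libraries (1.06 ± 0.18 SE, adjusted p = 0.00188), and the SH libraries had 336, 261, 328, 449 and 405. Homer1, a postsynaptic scaffold, was at 2516, 3097, 2944 and 3322 and 3873, 3666, 4119, 3550.3 and 3564, with no overlap (0.34 ± 0.07 SE, adjusted p = 0.00848), and at 0.23 (adjusted p = 0.0775) after the trends were removed.

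Of the activity-induced genes, 24 had a promoter in the table. The cAMP response element TGACGTCA, searched on both strands, was found in 2 of them (8.33%), Btg2 and Dusp1, against 588 of all 32851 promoters (1.79%) and 193 of the 5749 tested genes with a promoter (3.36%). The serum response box (CArG box), searched by its usual pattern of a CC, 6 weak bases and a GG, was found in 1 of the 24, Dusp5, against 1.63% of all promoters. No match says only that these letters were not in the window. The 2 promoters with the cAMP response element are shown because both genes fell, as above from RefSeq with matches in GRCm39 at chr1:134006894-134007143 and chr17:26727447-26727696, both on the minus strand, with the element in capitals. It begins 166 bases before the start of Btg2 and 143 before that of Dusp1.
Btg2: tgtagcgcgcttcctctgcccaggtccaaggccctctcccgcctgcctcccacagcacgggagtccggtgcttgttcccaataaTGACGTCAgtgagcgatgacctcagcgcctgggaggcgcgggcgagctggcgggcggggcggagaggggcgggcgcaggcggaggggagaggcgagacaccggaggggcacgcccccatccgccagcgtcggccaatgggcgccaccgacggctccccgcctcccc
Dusp1: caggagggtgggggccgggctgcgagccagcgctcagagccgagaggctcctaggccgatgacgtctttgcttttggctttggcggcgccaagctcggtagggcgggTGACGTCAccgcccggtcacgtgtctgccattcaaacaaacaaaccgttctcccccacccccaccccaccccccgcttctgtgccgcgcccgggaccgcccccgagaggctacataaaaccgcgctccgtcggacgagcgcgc

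**Figure D4:**
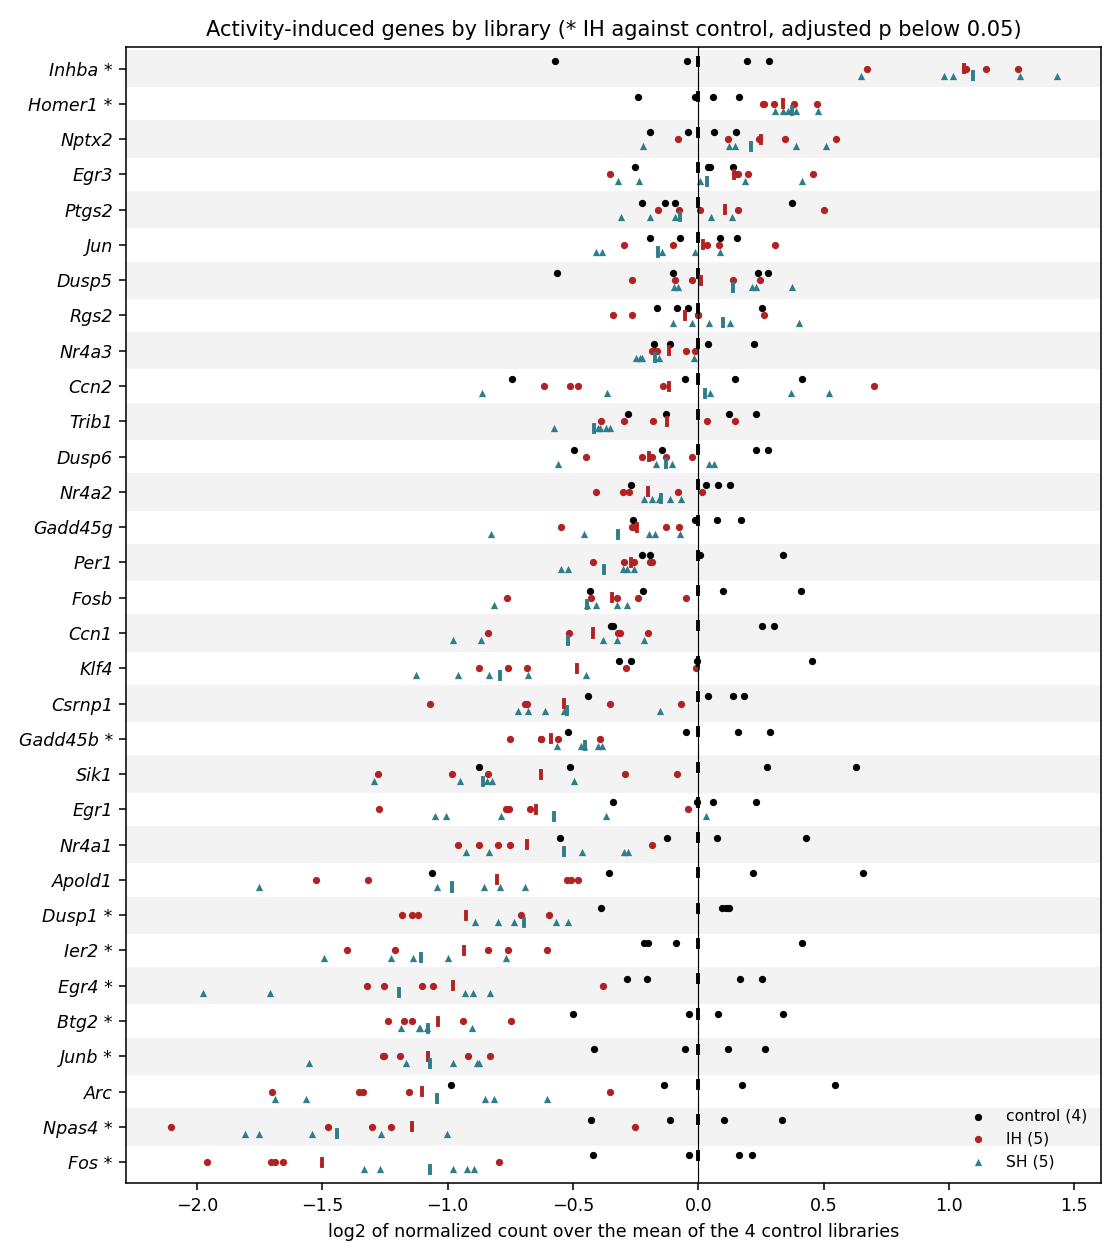
Log2 of the normalized count over the mean of the 4 control libraries (x axis) for the 32 activity-induced genes tested (rows), with control libraries as black points, IH as red points, SH as teal triangles and group means as short bars. Fos, Npas4, Arc and Junb lie lowest, red points and teal triangles cover similar ranges in most rows, and Inhba and Homer1 are the 2 starred genes on the right.

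Oxygen-regulated genes were read from a list of 35 HIF targets, of which 16 were in the deposited table. Of 16 tested, 3 were higher (Pfkfb3, Vegfa and P4ha1), where 5.98% of all genes were, and none was lower, with a median of 0.18, while the list median of the IH libraries ran from 0.10 to 0.15 and that of the control libraries from -0.07 to 0.04, without overlap. Pfkfb3, which makes an activator of glycolysis, was at 750.5, 889, 975 and 905 in control and 1128, 1181, 1174, 1172 and 1329 in IH, no IH library reaching down to the control range (0.44 ± 0.08 SE, adjusted p = 0.00277). Vegfa, the main endothelial growth factor, was at 1525, 1535, 1532 and 1851 and 1971, 2125, 1898, 2154 and 2184. Control replicate 4 was close to the lowest IH library, and the log2 fold change was 0.36 ± 0.07 (SE, adjusted p = 0.0066). The SH libraries, at 1479, 1536, 1547, 1402 and 1334, reached no higher than 1547, and IH exceeded SH by 0.50 ± 0.07 (SE, adjusted p = 0.000914). P4ha1, a collagen prolyl hydroxylase, was at 0.39 (adjusted p = 0.0195). Hk2 (0.40, adjusted p = 0.0898), Pdk1 (0.11, adjusted p = 0.475), Egln3 (-0.04, adjusted p = 0.942) and Hif1a itself (0.09, adjusted p = 0.354) did not pass.

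In the wider list of blood vessel growth genes, 31 tested, Vegfa was the 1 member called higher and 2 were lower, near the 5.98% and 4.68% of all genes. Vegfb, a relative of Vegfa, was at 1262, 1192, 1092 and 1232 in control and 761, 946, 888, 924 and 724 in IH, separate in every library (-0.49 ± 0.10 SE, adjusted p = 0.00477), and at -0.37 (adjusted p = 0.0146) without the trends. Pdgfb, which recruits pericytes, was at 895, 806, 716 and 874 and 601, 569, 622, 631 and 652, also separate (-0.42 ± 0.09 SE, adjusted p = 0.00885), and at -0.27 (adjusted p = 0.0455) without the trends. The median of the list was -0.06. Endothelial markers had 1 of 10 called, Ly6c1, at 0.46 (adjusted p = 0.0228), with marker sums of 696 to 811 CPM in control and 824 to 878 in IH.

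Of 38 NRF2 target genes listed, 26 were tested. They had 1 member higher and none lower, no more than the 5.98% and 4.68% of all genes, with a median of -0.10. The member was Nfe2l2, the gene of NRF2 itself. Its counts were 203, 280.02, 260.3 and 383 in control and 391, 426, 360.3, 419 and 449.5 in IH, where control replicate 4 overlapped the IH range (0.54 ± 0.16 SE, adjusted p = 0.0365). The call was lost in 10 of 27 alternatives, for example at 0.41 (adjusted p = 0.118) without control replicate 1 and 0.47 (adjusted p = 0.1) without the trends. Its enzymes Gclc (0.00, adjusted p = 0.984), Txnrd1 (0.07, adjusted p = 0.477), Nqo1 (-0.12, adjusted p = 0.843) and Gsr (-0.26, adjusted p = 0.102) did not pass, nor did the repressor Keap1 (-0.06, adjusted p = 0.53).

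Genes of oxidative phosphorylation and of ribosomes leaned to lower values, with list medians of -0.15 and -0.20, and of -0.06 and -0.11 without the trends. IH replicate 3 did not share the lower values, with medians relative to the control mean of 0.03 and -0.02, inside the control ranges of -0.02 to 0.07 and -0.08 to 0.08. The transcripts of both lists were short, with median lengths of 861 and 973 bases against 3383 in genes that were not called, and had a median GC content of 51.3% and 51.8%. Of 47 subunits of the respiratory chain and ATP synthase tested, out of 92 listed, 8 were lower, where 4.68% of all genes were, and none higher. Of the 8, 5 were subunits of complex I. Ndufv3 was at 1112, 1161, 1149.7 and 1120.4 in control and 932, 816, 835, 875 and 910.1 in IH, with no overlap (-0.38 ± 0.07 SE, adjusted p = 0.00278), and stayed called in all 27 alternatives (-0.26, adjusted p = 0.0256 without the trends). Ndufa13 was at 1794, 1886, 2068 and 1809 and 1335, 1309, 1601, 1379.9 and 1291, also separate (-0.45 ± 0.10 SE, adjusted p = 0.0086), and at -0.24 (adjusted p = 0.0744) without the trends. With the trends removed 4 members were called, of the 8 only Ndufv3 and Sdhb, and leaving out single libraries gave between 3 (without control replicate 2) and 19 (without IH replicate 3). In the test against SH, 3 members were higher and 3 lower in IH, against 1.51% and 0.909% of all genes. Ndufa3 (-0.50, adjusted p = 0.00938) and Ndufa1 (-0.44, adjusted p = 0.0221) were lower, Uqcr11 (0.55, adjusted p = 0.00739) and Ndufab1 (0.40, adjusted p = 0.00739) higher.

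Of 63 cytosolic ribosomal protein genes tested, 17 were lower, where 4.68% of all genes were, and none higher. The count was 15 without the trends, 8 without control replicate 2 and 40 without IH replicate 3. Counts of these genes, which have many processed copies in the genome, are uncertain. Rpl38 was at 1908, 2095, 2196 and 1829.7 in control and 1302, 1365, 1415, 1464 and 1315 in IH, without overlap (-0.55 ± 0.07 SE, adjusted p = 0.000266), and was at -0.29 (adjusted p = 0.011) without the trends. The SH libraries held 1186, 1065, 1079, 1202 and 1240.1. Rpl39 had group means of 787 in control, 615 in IH and 1085 in SH, and IH was below SH by a log2 difference of -0.82 ± 0.09 (SE, adjusted p = 6e-05). In all, 10 of the 63 were lower in IH than in SH and 4 were higher, against 0.909% and 1.51% of all genes. Among the higher were Rps19 (0.47, adjusted p = 0.00288) and Rps24 (0.40, adjusted p = 0.000423). Of 43 mitochondrial ribosomal proteins 1 was called, Mrpl52, at 368, 385, 404 and 419.9 in control and 256, 324, 359, 276 and 262 in IH (-0.42 ± 0.11 SE, adjusted p = 0.0245). Its call was lost in 8 of 27 alternatives, for example at -0.39 (adjusted p = 0.0683) without control replicate 4. In SH it was lower still, and IH exceeded SH by 0.55 ± 0.11 (SE, adjusted p = 0.0128). Of 19 proteasome subunits 1 was called, the ubiquitin receptor Psmd4, at -0.22 (adjusted p = 0.0292), and at -0.11 (adjusted p = 0.272) without the trends.

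Counts of receptor and synapse genes called are to be read against the 4.68% of all genes called lower and the 5.98% called higher. Of 40 receptors for neuromodulators 1 was lower and 2 were higher, which is near those shares. Adrb1, the beta-1 adrenergic receptor, was at 577, 476, 462 and 468 in control and 235, 302, 289.9, 209.5 and 250.3 in IH, with the control replicate 1 the highest and no overlap (-0.95 ± 0.13 SE, adjusted p = 0.00028), and IH was also below SH (-0.60 ± 0.12 SE, adjusted p = 0.014). Htr1a, the inhibitory serotonin receptor, was at 739, 749, 791 and 701 and 885, 1009.5, 1026, 964 and 1005, separate in all libraries (0.39 ± 0.09 SE, adjusted p = 0.0109). Npy2r, a presynaptic receptor of neuropeptide Y, was at 1056, 1201, 1199 and 1014 and 1607, 1529, 1494, 1490 and 1126. IH replicate 5 fell into the control range, and the call (0.37 ± 0.11 SE, adjusted p = 0.0395) was lost in 10 of 27 alternatives, with 0.22 (adjusted p = 0.312) without the trends.

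Among 27 ionotropic receptor subunits, 2 were lower, the NMDA receptor subunit Grin2d (-0.60 ± 0.16 SE, adjusted p = 0.0239) and the kainate receptor subunit Grik5 (-0.25 ± 0.07 SE, adjusted p = 0.032). Both lost the call without the trends, at -0.37 (adjusted p = 0.185) and -0.04 (adjusted p = 0.701). Of 34 vesicle and release genes, Slc18a2, the vesicular monoamine transporter, was higher, at 67.3, 48.3, 88.3 and 99 in control and 121, 149, 172, 161 and 236 in IH, each IH library above each control library (1.15 ± 0.23 SE, adjusted p = 0.00548). The SH libraries held 123, 152, 157, 169 and 216, and the call passed in all 27 alternatives. Syt5, a synaptotagmin, was lower at -0.26 (adjusted p = 0.022) and at -0.15 (adjusted p = 0.144) without the trends. Of 19 postsynaptic scaffold and adhesion genes, Dlgap3 (-0.30, adjusted p = 0.00966) and Nrxn2 (-0.28, adjusted p = 0.0192) were lower, and Dlg1 (0.28, adjusted p = 0.00537) and Nrxn3 (0.22, adjusted p = 0.0368) were higher. None of these 4 was called after the trends were removed, when Dlgap3 was at -0.04 (adjusted p = 0.676), Nrxn2 at -0.10 (adjusted p = 0.319), Dlg1 at 0.18 (adjusted p = 0.0552) and Nrxn3 at 0.15 (adjusted p = 0.17).

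Of 17 circadian clock genes, 5 were higher and 1 was lower, against 5.98% and 4.68% of all genes. The time of day at collection is not given in the sources used here, and its part in the result was not tested. Per3, a repressor of the clock loop, was at 1311, 1225, 1373 and 1211 in control and 1933, 1866, 1797, 2065 and 2095 in IH, far apart relative to the spread in either group (0.61 ± 0.08 SE, adjusted p = 0.000377). SH libraries were at 1399.7, 1383, 1383, 1699 and 1747, and IH exceeded SH by 0.36 (adjusted p = 0.0229). Per3 was the 1 clock gene higher in IH than in SH, and 2 were lower, against 1.51% and 0.909% of all genes. Per2 (0.40, adjusted p = 0.0194) and Cry1 (0.50, adjusted p = 0.0122), of the same repressor arm, were higher as well. Hlf, an output bZIP factor, was at 3060.2, 2392, 2616 and 2649.9 and 3891, 4259, 3727, 3469.9 and 3318, without overlap (0.48 ± 0.10 SE, adjusted p = 0.00717), and the nuclear receptor Nr1d2 rose by 0.31 (adjusted p = 0.011) while its paralog Nr1d1 fell by 0.35 ± 0.10 (SE, adjusted p = 0.0308) on the log2 scale. Without the trends Nr1d1 was at -0.24 (adjusted p = 0.139) and Nr1d2 at 0.15 (adjusted p = 0.104). Clock (0.16, adjusted p = 0.161) and Dbp (-0.25, adjusted p = 0.123) did not pass.

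Of 18 glucocorticoid-induced genes 3 were higher and 1, Dusp1, was lower, against 5.98% and 4.68% of all genes, with a median of 0.25. Plin4, a lipid droplet coat protein, showed the largest rise of all 441, from 95.5, 61.8, 65.9 and 96.8 to 288, 130.1, 372, 184 and 242. The IH libraries spread from 130.1 to 372 but all exceeded control (1.61 ± 0.29 SE, adjusted p = 0.00306), and SH libraries reached 245, 133, 179.9, 276 and 208. Gjb6, an astrocyte connexin, was at 745, 848, 825 and 789 and 1162, 984, 1250.2, 1100.5 and 1049, separate (0.47 ± 0.08 SE, adjusted p = 0.0015). Tsc22d3, encoding the leucine zipper GILZ, rose by 0.57 (adjusted p = 0.00488) and was above SH by 0.44 (adjusted p = 0.0334). Sgk1 (0.39, adjusted p = 0.273), Nfkbia (-0.27, adjusted p = 0.216) and the metallothionein Mt1 (-0.15, adjusted p = 0.389) did not pass.

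H1f10, a linker histone, had the smallest adjusted p of the comparison together with Cebpb. Its counts were 899, 1010, 801 and 953 in control and 458, 416, 479.6, 400.01 and 393 in IH. Every IH library was far under every control library (-1.09 ± 0.10 SE, adjusted p = 1.95e-05). SH libraries, at 743, 538, 594, 631 and 542, lay between, and IH was below SH by a log2 difference of -0.51 ± 0.10 (SE, adjusted p = 0.012). H1f10 passed in all 27 alternatives and was at -0.69 (adjusted p = 0.000286) without the trends. Of 15 histone genes tested, H1f10 was the 1 lower member, and 2 were higher, H2az2 (0.33, adjusted p = 0.0291) and H2bc6 (0.68, adjusted p = 0.0425), against 4.68% and 5.98% of all genes. For these 2, neither call held in all alternatives, with 5 and 14 of 27 lost, and H2bc6 at 0.58 (adjusted p = 0.119) without the trends. Mvd, an enzyme of sterol synthesis, was lower (-0.46, adjusted p = 0.0125) and was not called without the trends, at -0.31 (adjusted p = 0.104). Of 54 basement membrane and matrix genes, 4 were lower and 2 higher, near the 4.68% and 5.98% of all genes. The largest fall was that of Hmcn1, an extracellular matrix protein, from 195, 315, 232 and 231 in control to 108, 127, 60.8, 128 and 159 in IH, without overlap (-1.05 ± 0.23 SE, adjusted p = 0.00789), with the call kept in all 27 alternatives. Collagen IV chain Col4a1 was at 3085, 2814, 2597 and 2749 in control and 2229, 2144, 2015, 2472 and 2131 in IH, with no overlap (-0.35 ± 0.08 SE, adjusted p = 0.0109), and passed in all 27 alternatives. Lamc1 (0.27, adjusted p = 0.0291) and Lama4 (0.55, adjusted p = 0.043), both laminin chains, were the higher ones, and their calls were lost in 8 and 15 of 27, with Lama4 at 0.50 (adjusted p = 0.0635) without the trends.

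**Figure D5:**
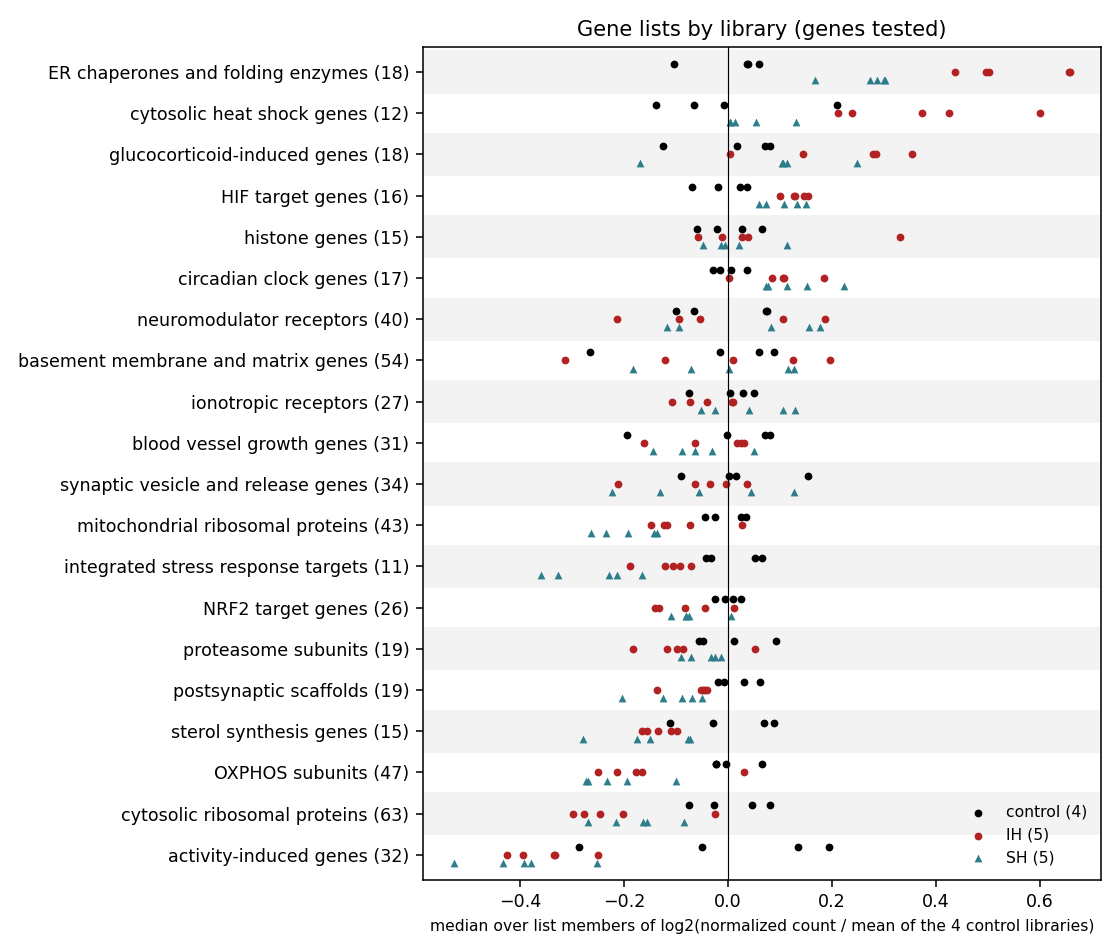
Median over the members of each gene list of log2 normalized count relative to the mean of the 4 control libraries (x axis), by library, with control as black points, IH as red points and SH as teal triangles, and the number of genes tested in parentheses. Among the pathway lists drawn, the ER chaperone list is the one farthest to the right, at 0.44 to 0.66 in the IH libraries, and the activity-induced list the one farthest to the left, at -0.43 to -0.25.

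Cell type markers were compared as a partial check of composition, since the deposited table lacks many of them. It holds all 16 choroid plexus markers listed. It holds only 3 of 10 for astrocytes, 4 of 7 for oligodendrocyte precursors, 9 of 14 for microglia and 1 of 7 for monoaminergic neurons. Erythrocyte transcripts were lower in IH, with 3 of 4 tested genes called, where 4.68% of all genes were called lower, and marker sums of 321 to 351 CPM in control and 184 to 255 CPM in IH, without overlap. The alpha globin Hba-a2 was at 667, 706, 572 and 823 in control and 426, 338, 360.3, 434 and 386 in IH (-0.83 ± 0.14 SE, adjusted p = 0.00178), and the beta globin Hbb-bs at 984, 1066, 937 and 1102 and 739, 675, 914, 566 and 632 (-0.54 ± 0.12 SE, adjusted p = 0.00838), each with separate groups. Hba-a1 (-0.54, adjusted p = 0.0127) and Hba-a2 are near-identical copies, so the split of reads between them is uncertain. Without the trends Hba-a1 was at -0.36 (adjusted p = 0.0559). The erythroid enzyme gene Alas2 was under the count limit. SH sums were 245 to 337 CPM, and no globin gene passed the test of IH against SH, at log2 differences of -0.66 to -0.24. Without control replicate 4 and IH replicate 5, 2 of the 4 were called.

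Several other marker lists leaned the other way. The median log2 fold change was 0.39 for dentate granule cells (8 of 8 members above 0), 0.42 for oligodendrocytes (8 of 9), 0.51 for ependymal cells (4 of 4) and 0.32 for thalamus and habenula (7 of 9). The SH minus control medians, which share the control libraries, were 0.43, 0.38, 0.67 and 0.31 in the same order. Among the IH and control libraries, IH replicate 5 stood highest in all 4 lists. For dentate granule cells SH replicates 4 (0.81) and 5 (0.73) stood at or above its 0.73. Relative to the control mean, the list median of IH replicate 5 was 1.14 for oligodendrocytes, with the other IH libraries at most at 0.27 and control at most at 0.26. It was 0.99 for thalamus and habenula, with the other IH libraries at most at 0.20, under the highest control library at 0.39. For ependymal cells it was 1.47, with the others at most at 0.56 and control at most at 0.53. For dentate granule cells, marker sums were 819 to 1063 CPM in control and 1126 to 1793 in IH, and 1 member was called, where 5.98% of all genes were called higher. It was Prox1, the transcription factor that keeps granule cell identity, at 1838, 1844, 2122 and 2009 in control and 2607, 3096, 2813, 2976 and 3911 in IH, with the highest value in IH replicate 5 and no overlap (0.66 ± 0.17 SE, adjusted p = 0.0264). SH libraries were at 2556, 3102, 2699, 4312 and 4431. The call was lost in 6 of 27 alternatives, for example at 0.56 (adjusted p = 0.0658) without the trends, 0.56 (adjusted p = 0.0552) without IH replicate 5 and 0.63 (adjusted p = 0.0817) without control replicate 1. None of 7 CA1 and 6 CA3 pyramidal cell markers, 9 interneuron, 9 oligodendrocyte, 9 microglia, 8 mural cell, 16 choroid plexus, 4 ependymal cell, 9 thalamus and habenula, 9 striatum, 1 monoaminergic neuron and 8 meningeal fibroblast markers was called. Of 4 oligodendrocyte precursor markers, against the same background and 4.68% lower, C1ql1 was lower (-0.64, adjusted p = 0.011) and Gpr17 was higher (0.37, adjusted p = 0.0227). C1ql1 was at -0.35 (adjusted p = 0.135) without the trends, and the calls were lost in 3 and 4 of 27 alternatives. Of 3 astrocyte markers, 1 was higher, Gjb6, where 5.98% of all genes were called higher.

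Further changes lay outside the pathway and cell type lists. Arf6, a small GTPase of endosomal recycling and dendritic growth, was at 690.4, 725, 748 and 768 in control and 438, 394, 489, 455 and 431 in IH, tight in both groups (-0.73 ± 0.08 SE, adjusted p = 6.08e-05), and was below SH by a log2 difference of -0.37 ± 0.07 (SE, adjusted p = 0.013). Basp1, an abundant growth cone membrane protein, was at 15279, 14343, 13358 and 13970 and 9304, 9567, 10268, 8893 and 7650, also separate (-0.64 ± 0.08 SE, adjusted p = 0.00028). Cysrt1 was at 100.1, 113, 112 and 80.5 and 59.6, 37.8, 31, 57.1 and 32.4, a low-count gene with a large drop (-1.22 ± 0.26 SE, adjusted p = 0.00739). The phospholipase gene Pla2g4e was at 202, 156, 196 and 181 and 109, 108, 53.7, 84.7 and 115 (-0.96 ± 0.20 SE, adjusted p = 0.00679). Ism1, a secreted protein gene, was at 235, 373, 378 and 312 and 193, 123, 212, 150.3 and 177 (-0.92 ± 0.17 SE, adjusted p = 0.00392), and Rasl11a, a Ras-like gene, at 203, 212, 196 and 256 and 154, 91.2, 142, 110.1 and 85.1 (-0.90 ± 0.20 SE, adjusted p = 0.0086). None of these overlapped between the groups.

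On the higher side, Etnppl, an astrocyte phospholyase of phosphoethanolamine, was at 225, 211, 287 and 293 in control and 439.9, 438, 486, 464 and 567 in IH (0.92 ± 0.16 SE, adjusted p = 0.00244). Adam8, a membrane metalloprotease, was at 156, 112, 140.2 and 157 and 331, 216, 315, 220.1 and 241 (0.91 ± 0.17 SE, adjusted p = 0.00311), and Plekhg4, a guanine nucleotide exchange factor, at 62.8, 38.6, 41.1 and 47.9 and 108, 64.5, 101, 86.8 and 120.04 (1.01 ± 0.22 SE, adjusted p = 0.00799). These 3 genes were separate in all libraries and passed in all 27 alternatives. Trpc6, a cation channel, was at 378, 392, 456 and 456 and 791, 569, 687, 589 and 804, separate as well (0.71 ± 0.16 SE, adjusted p = 0.0109). Peg10, an imprinted retrotransposon-derived gene, was at 455, 619, 291 and 338 and 928, 738, 637, 730.2 and 1297, with IH replicate 5 highest (1.03 ± 0.27 SE, adjusted p = 0.0298), and its call was lost in 9 of 27 alternatives, among them 0.93 (adjusted p = 0.0533) without the trends and 0.83 (adjusted p = 0.0568) without IH replicate 5. Ankub1 was at 38.2, 32.8, 55 and 68.5 and 83.6, 83.4, 91.9, 85.7 and 223, where IH replicate 5 was the highest (1.23 ± 0.31 SE, adjusted p = 0.0176), and the call was lost without control replicate 1 (1.13, adjusted p = 0.0647) and control replicate 2 (1.08, adjusted p = 0.0674). A list of genes also measured by RT-qPCR had 23 members tested, of which 9 were lower and 5 higher, against 4.68% and 5.98% of all genes. These genes had been chosen on the same samples, so the share is not independent evidence of direction. The study's RT-qPCR used control RNA extracted in the main experiment. There Hmcn1 was significantly lower in IH than in control. No significant difference between IH and control was reported for Cebpb, H1f10 (there H1fx), Hspa5, Manf, Sdf2l1, Adrb1, Basp1, Ism1, Rasl11a and Trpc6.

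At the count limit, the genes just inside were Pi15 and Pim1, with a mean count of 40.2 in their lower group, and Dnaaf8 with 40.3, and those just outside were Gch1, Ccdc17 and Ppic with 39.8. Called genes had more reads. The median normalized control count was 1216 in genes called lower, 1005 in genes called higher and 405 in the rest.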

How the data were processed

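Hippocampal poly(A) RNA was sequenced as paired 150 bp reads. Per the submitters' processing notes, reads were trimmed with fastp 0.23.4, aligned to GRCm39 with HISAT2 2.2.1 and quantified with StringTie 2.2.1. The authors deposited estimated counts per gene (StringTie), not normalized, for 7756 genes that they had preselected by signal and by size of the difference from control, so shares and adjusted p-values hold only within that table. Counts were rounded to whole numbers, which changed 10 genes. Totals per library, given with the results, set the precision.

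One edgeR 4.0.16 quasi-likelihood model (R 4.3.3, TMM scaling, robust) was fitted to all 14 libraries in 3 groups. IH minus control and IH minus SH are contrasts of it, adjusted by Benjamini-Hochberg over the 7371 genes whose mean count reached 40 in both control and IH. To normalize, each count was divided by its library's TMM size and multiplied by the mean size. SE is the log2 fold change over the root of F. GC content and length came from the canonical transcripts of GENCODE, where 7707 genes matched by symbol, 13 by a RefSeq synonym and 36 did not. DESeq2 1.42.0 and limma 3.58.1 served as alternatives, and the model was tested on simulated data.

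Genes were named by rule: the 10 largest changes each way among called genes without overlap, up to 2 called members each way per list with the smallest adjusted p (or the member with the smallest p where none was called), the called RT-qPCR genes and the 5 smallest adjusted p. Not every gene so named is given with values, and other list members given with values were chosen after their values were seen. The members and lists were chosen with earlier results of these data known. List members absent from the preselected deposited table could not be tested, and counts cover the tested members only. No 2 libraries of a group agreed within sampling noise (chi-square per degree of freedom 8.94 to 45.3). Nothing used here says how samples relate beyond their group, so p-values measure the spread between these samples. 1 result is not reported here.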

Additional observations from a re-analysis of the deposited data

Results flagged for a closer look

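In 19 of 200 tests for a single library far from the others of its group, the gap passed Dixon's 95% critical value, where chance passes about 5%. In the control group these were normalized counts of Adrb1 (576.7), Dusp1 (403), Gpr17 (974.6), Prlr (1306.5) and Vegfa (1851), and the choroid plexus marker sum (13800.0 CPM). In the IH group they were normalized counts of Ankub1 (223), Dnah12 (132.8), Egr4 (731), Ermn (2720.0), Fos (276), Lama4 (118), Ndufa13 (1601), Npy2r (1126), Pfkfb3 (1329) and Zic4 (357.6), and the marker sums of oligodendrocytes (22119 CPM), oligodendrocyte precursors (667.7 CPM) and thalamus and habenula (610.8 CPM).

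For 10 named genes the change under IH differed from that under SH in the same edgeR quasi-likelihood fit at an adjusted p under 0.05. The log2 difference of IH minus SH was -1.33 for Cebpb, -0.73 for Rps21, -0.60 for Adrb1, -0.51 for H1f10 and -0.37 for Arf6. It was 0.55 for Mrpl52, 0.51 for Hspa5, 0.50 for Vegfa, 0.46 for Pdia3 and 0.36 for Per3.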

How the results depend on the processing

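Of the 70 called genes named by rule, 35 kept direction and call in all 27 alternatives, 0 reversed, and 192 of 1888 values lost the call. The 786 calls became 442 (221 lower, 221 higher, and 46 lower past the study's limits) with GC content and length trends removed, and 380 (199 and 181) with the replicate block as well. The replicate block alone gave 787, and the numbers share no animal or stated batch (correlations of deviations 0.042 to 0.462). Scaling to the 80th percentile gave 422 lower and 399 higher (51.4% lower against 43.9%), limma on the study's processing 314 lower and 293 higher, and scaling to the library total 35.2% lower. Leaving out control replicate 4 and IH replicate 5 together, chosen after seeing the data, gave 361 (165 lower, 196 higher). Leaving out 1 library gave 407 (without control replicate 2) to 980 (without IH replicate 3) calls, 173 to 476 lower, 225 to 504 higher, 187 to 269 past the study's limits, 81 to 100 lower and 87 to 180 higher, and 9 to 12 named genes differing from SH. Ddc, which was not called, changed sign without IH replicate 1 (0.01) and IH replicate 4 (0.10) and was at -0.31 without IH replicate 5. The causes were not tested.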
